A study of Mus musculus with 15 samples.

Results

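The 10 genes described here encode feedback inhibitors of mitogen-activated protein kinase (MAPK) signalling: the dual-specificity phosphatases Dusp1, Dusp2, Dusp4, Dusp5, Dusp6 and Dusp10, the Sprouty genes Spry1 and Spry2, and the Sprouty-related genes Spred1 and Spred2. They were chosen by name, with earlier results of these data known. A probe set (the group of array probes that reads 1 transcript region) was taken for a gene only if its annotation gave exactly 1 symbol. All 10 were measured, among 22180 genes in all. They had 11 probe sets among 41345, because Dusp6 had 2, and the probe set with the highest mean over all arrays stands for each gene. The samples, hybridised to Affymetrix Mouse Gene 2.0 arrays, were mouse LSK cells, which are hematopoietic stem and progenitor cells (HSPC) sorted as negative for lineage markers and positive for Sca-1 and Kit. There were 3 groups of 5 arrays: non-cultured cells taken after sorting, cells cultured for 18 h without extracellular vesicles (EV), and cells cultured for 18 h with EV from AFT stromal cells. Both cultured groups were kept in MyeloCult M5300 medium, and targets were labelled from 500 pg of total RNA with the picoWT protocol. The 5 samples of each group are biological replicates per the series design. The labels used here give no strain, age, genotype, number of animals per sample or dose of EV, and no other agent. Groups were compared with limma over all 22180 genes, and a gene was called at an adjusted p under 0.05. A log2 difference of -1 is a halving of signal, and the non-cultured arrays are the reference of both culture comparisons, which therefore share their control.

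Growth factor receptors such as Kit and Flt3 signal through RAS, RAF, MEK and ERK, and stress and cytokine signals through p38 and JNK. The phosphatases of the DUSP family remove the activating phosphates of these kinases, while Sprouty and SPRED proteins act upstream, at the step from receptor to RAS and RAF. Most of these inhibitors are themselves transcribed in response to the kinases they restrain, which makes them a negative feedback loop, and several are immediate early or delayed early genes with short-lived transcripts. In hematopoietic stem and progenitor cells the pathway is known for its part in survival, cycling and the choice of lineage.

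Array medians lay between 4.62 and 4.74 on the log2 scale, and the mean correlation of an array with the others of its group was lowest, at 0.964, for replicate 1 with EV. Of 10 LSK markers measured, Kit, Cd34, Flt3 and Meis1 were among those bright in every group (Kit at 9.62 to 10.01 and Cd34 at 10.44 to 10.63 as group means). Slamf1 was dim, at group means of 3.79 to 4.31, and Procr lay at 5.51 to 5.78. Ly6a, which encodes Sca-1, was not analysed here. Of the lymphoid markers, Cd3g lay at group means of 3.00 to 3.10 and Ms4a1 at 2.85 to 2.95, near the 10th percentile of 2.90 over all genes, while the B cell genes Cd79b, at 5.55 to 5.95, and Pax5, at 4.68 to 4.93, lay higher. Non-cultured replicates 4 and 5 stood apart in granule and neutrophil genes, with a mean over that list of 5.84 and 5.85 against 7.02 to 7.10 in replicates 1 to 3. In both cultured groups replicates 4 and 5 were also below replicates 1 to 3 in this list, by less. With EV the means were 7.20 and 7.31 against 7.41 to 7.60, and without EV 7.40 and 7.14 against 7.60 to 7.99. In non-cultured replicates 4 and 5, Dusp1, Dusp2 and Dusp4 were both above, and Spred2 was both below, all of replicates 1 to 3, by mean log2 differences of 0.71, 0.75, 0.66 and -0.25. For Dusp1, Dusp2, Dusp4 and the Dusp6 difference with EV, results are also given without these 2 arrays. For Spry2 and Spred2 the 2 sets of replicates are given apart.

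After 18 h of culture without EV the feedback genes were lower than in non-cultured cells. Of the 10 genes, 8 fell and 0 rose, against 6.88% of all genes called lower and 6.75% called higher. Since the genes were chosen with earlier results of these data known, such counts describe them and are not a test of the list. The genes that fell furthest were Dusp5, which encodes a nuclear phosphatase of ERK (6.95-fold lower), Spry2 (6.90-fold lower), Dusp1 (4.89-fold lower) and Dusp10 (3.37-fold lower). Dusp2 and Spred1 were not called. In 7 of the 10 genes the 5 cultured arrays all lay below the 5 non-cultured ones, against 6.1% of all genes that were lower with no overlap and 5.89% that were higher with no overlap. The median log2 difference was -1.10 over the 10 genes and 0.01 over all genes. In these bulk samples, fewer cells that express a gene and less RNA per cell cannot be told apart.

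**Figure D1:**
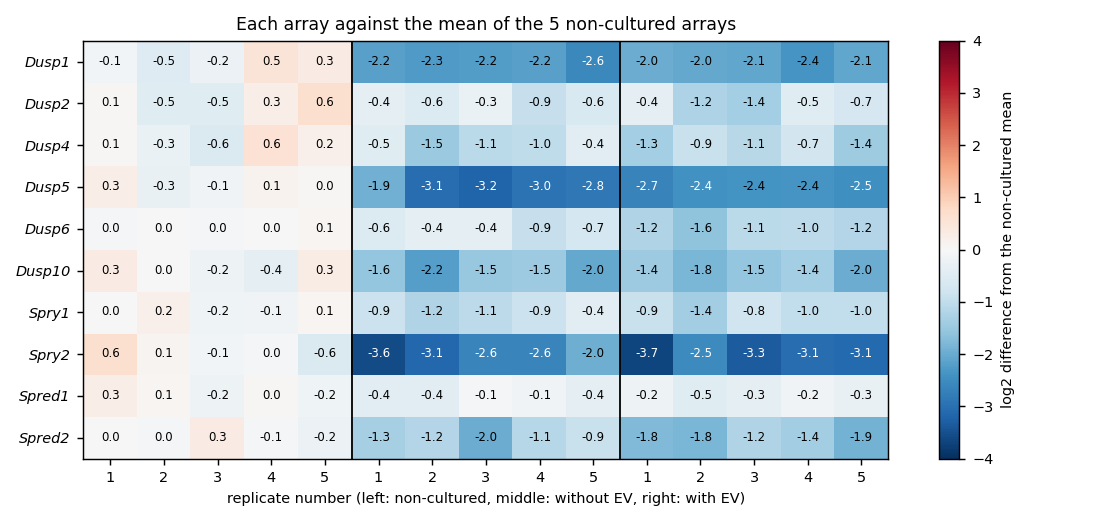
Each cell gives the log2 difference of 1 gene (rows) on 1 array (columns, by replicate number within the non-cultured, without EV and with EV groups) from the mean of the 5 non-cultured arrays; blue is lower and red higher. In the 10 cultured arrays every gene lies below the non-cultured mean, and Dusp5 and Spry2 hold the darkest cells.

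The upstream DNA of these genes is shown because most of them fell together. RefSeq (build GRCm38.p6) gave the start site of 9 of the 10 genes, Dusp4 being the one with no entry. The 250 bases before each start were searched on both strands for motifs of factors that act downstream of MAPK: the cAMP response element (CRE, TGACGTCA) and its core TGACGT, which lies within it, AP-1 (TGANTCA), ETS (CCGGAAG), EGR (GCGTGGGCG), the E-box CACGTG, and the CArG box of serum response factor. The 5 windows printed are those with a CRE core (Dusp1, Dusp5 and Spred2), that of Spry2, which fell as far as Dusp5, and that of Dusp6, the 1 gene called with EV against without EV. Capitals mark CRE, CRE core (TGACGT, or ACGTCA on the other strand) and CArG matches, and each sequence reads 5′ to 3′ toward its gene.
Dusp1, chr17:26508473-26508722, minus strand: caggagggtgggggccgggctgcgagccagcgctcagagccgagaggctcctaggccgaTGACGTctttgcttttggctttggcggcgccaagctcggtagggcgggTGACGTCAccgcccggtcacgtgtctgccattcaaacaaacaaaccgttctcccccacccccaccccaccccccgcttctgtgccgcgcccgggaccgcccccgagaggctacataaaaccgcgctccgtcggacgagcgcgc
Dusp5, chr19:53528895-53529144, plus strand: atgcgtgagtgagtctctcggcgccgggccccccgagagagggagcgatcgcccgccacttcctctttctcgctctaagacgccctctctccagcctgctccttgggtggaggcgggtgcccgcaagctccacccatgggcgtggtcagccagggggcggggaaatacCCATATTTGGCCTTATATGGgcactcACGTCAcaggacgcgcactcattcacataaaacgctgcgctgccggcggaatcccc
Spred2, chr11:19924192-19924441, plus strand: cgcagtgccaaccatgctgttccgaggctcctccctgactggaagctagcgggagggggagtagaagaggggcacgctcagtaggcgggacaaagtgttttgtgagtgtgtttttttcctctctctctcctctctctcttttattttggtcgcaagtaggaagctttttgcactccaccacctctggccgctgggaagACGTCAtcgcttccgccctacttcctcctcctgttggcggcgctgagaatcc
Spry2, chr14:105896820-105897069, minus strand: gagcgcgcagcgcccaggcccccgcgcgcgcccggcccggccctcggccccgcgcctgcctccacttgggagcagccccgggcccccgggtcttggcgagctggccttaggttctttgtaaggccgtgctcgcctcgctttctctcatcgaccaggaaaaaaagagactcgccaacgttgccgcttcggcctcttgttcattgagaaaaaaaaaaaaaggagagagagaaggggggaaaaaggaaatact
Dusp6, chr10:99262981-99263230, plus strand: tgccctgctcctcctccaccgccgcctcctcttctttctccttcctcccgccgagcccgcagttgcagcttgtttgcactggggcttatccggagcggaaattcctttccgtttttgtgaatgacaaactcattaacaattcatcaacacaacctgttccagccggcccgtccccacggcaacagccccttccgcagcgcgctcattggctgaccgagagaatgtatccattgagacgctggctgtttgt
The window of Dusp1 held a whole CRE, 143 to 136 bases before the start, and a separate CRE core 191 to 186 bases before it. That of Dusp5 held 2 adjacent CArG boxes, 82 to 73 and 72 to 63 bases before the start, and a CRE core 56 to 51 bases before it. The window of Spred2 held a CRE core 52 to 47 bases before the start. In all, 3 of 9 windows held a CRE core, against 6.47% of the 32851 windows of the whole table, 1 held a full CRE (1.55% of all windows) and 1 held a CArG box (1.47%). An E-box, not capitalised, was in the windows of Dusp1 and Dusp2 (2 of 9, against 6.02%). No window of the 9 held the AP-1, ETS or EGR letters, which 6.75%, 6.91% and 0.536% of all windows did. The 9 windows were 56.0 to 70.8% G and C, and the shares over all windows were not matched for this. These matches are letters in the DNA, and no binding was measured.

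Dusp1 encodes a nuclear phosphatase of p38, JNK and ERK and is a classical immediate early gene. In replicates 1 to 5 its log2 signals were 8.93, 8.52, 8.80, 9.54 and 9.37 in non-cultured cells, 6.85, 6.78, 6.79, 6.85 and 6.45 without EV, and 7.04, 6.99, 6.94, 6.68 and 6.96 with EV. All 10 cultured arrays thus lay over 1 log2 unit below the lowest non-cultured one, and the 2 cultured groups overlapped. The log2 difference of without EV from non-cultured was -2.29 (SE 0.16, limma adjusted p = 8.64e-08), and that of with EV was -2.11 (SE 0.16, adjusted p = 2.35e-07). Leaving out non-cultured replicates 4 and 5, the 2 with the highest Dusp1, gave -2.01 and -1.83.

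Dusp2, an inducible nuclear phosphatase known from activated leukocytes, had log2 signals of 8.03, 7.50, 7.49, 8.24 and 8.61 in non-cultured cells, 7.59, 7.42, 7.71, 7.05 and 7.37 without EV, and 7.60, 6.74, 6.62, 7.48 and 7.30 with EV. The groups overlapped, since non-cultured replicates 2 and 3 lay among the cultured arrays. Its difference was -0.55 without EV (SE 0.23, adjusted p = 0.152) and -0.82 with EV (SE 0.23, adjusted p = 0.025), and only the second was called. The 2 sets of replicates differed for Dusp2: without EV minus non-cultured was -0.10 over replicates 1 to 3 and -1.22 over replicates 4 and 5. Without non-cultured replicates 4 and 5 the difference with EV was -0.52 and was no longer called (adjusted p = 0.187), and it was also lost when any 1 of non-cultured replicates 1, 4 and 5 or with EV replicates 2 and 3 was left out (adjusted p = 0.0532 to 0.0671). The 2 non-cultured arrays in which Dusp2 was highest are the 2 with the lower neutrophil list, and the part of that list in the result was not tested.

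Dusp4 encodes a nuclear phosphatase of ERK and JNK. Its log2 signals were 6.83, 6.52, 6.19, 7.36 and 6.98 in non-cultured cells, 6.28, 5.30, 5.70, 5.76 and 6.36 without EV, and 5.43, 5.89, 5.66, 6.03 and 5.34 with EV. Every array with EV lay below every non-cultured array, while replicates 1 and 5 without EV lay above non-cultured replicate 3. Dusp4 fell by 0.90 without EV (SE 0.23, adjusted p = 0.0141) and by 1.11 with EV (SE 0.23, adjusted p = 0.00334). Without non-cultured replicates 4 and 5 the first of these was -0.63 and was not called (adjusted p = 0.113), and the second was -0.84.

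Dusp5 is the nuclear phosphatase that acts on ERK alone, and its window above holds the 2 CArG boxes. Its log2 signals were 8.94, 8.35, 8.52, 8.79 and 8.70 in non-cultured cells, 6.74, 5.61, 5.45, 5.70 and 5.82 without EV, and 5.97, 6.23, 6.26, 6.29 and 6.20 with EV. The non-cultured arrays were all far above the cultured ones, and among the cells without EV replicate 1 was high. The difference was -2.80 without EV (SE 0.19, adjusted p = 6.38e-08) and -2.47 with EV (SE 0.19, adjusted p = 2.89e-07), which corresponds to 6.95-fold and 5.54-fold lower signal.

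Dusp6 encodes the cytoplasmic phosphatase of ERK. By its brighter probe set the log2 signals were 9.70, 9.73, 9.69, 9.72 and 9.80 in non-cultured cells, 9.17, 9.32, 9.33, 8.82 and 9.01 without EV, and 8.53, 8.11, 8.65, 8.69 and 8.56 with EV. The 3 groups did not overlap, with non-cultured cells highest and cells with EV lowest. Dusp6 fell by 0.60 without EV (SE 0.12, adjusted p = 0.00253) and by 1.22 with EV (SE 0.12, adjusted p = 3.1e-06).

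Dusp10 encodes a phosphatase that prefers p38 and JNK to ERK. Its log2 signals were 7.05, 6.71, 6.51, 6.32 and 7.02 in non-cultured cells, 5.16, 4.53, 5.21, 5.27 and 4.68 without EV, and 5.28, 4.90, 5.18, 5.35 and 4.73 with EV. All cultured arrays were about 1 unit or more below the non-cultured ones, and the 2 cultured groups covered nearly the same range. The difference was -1.75 without EV (SE 0.18, adjusted p = 6.2e-06) and -1.64 with EV (SE 0.18, adjusted p = 1.23e-05). The phosphatases that fell thus included the ERK-selective Dusp5 and Dusp6 and the p38- and JNK-directed Dusp10.

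**Figure D2:**
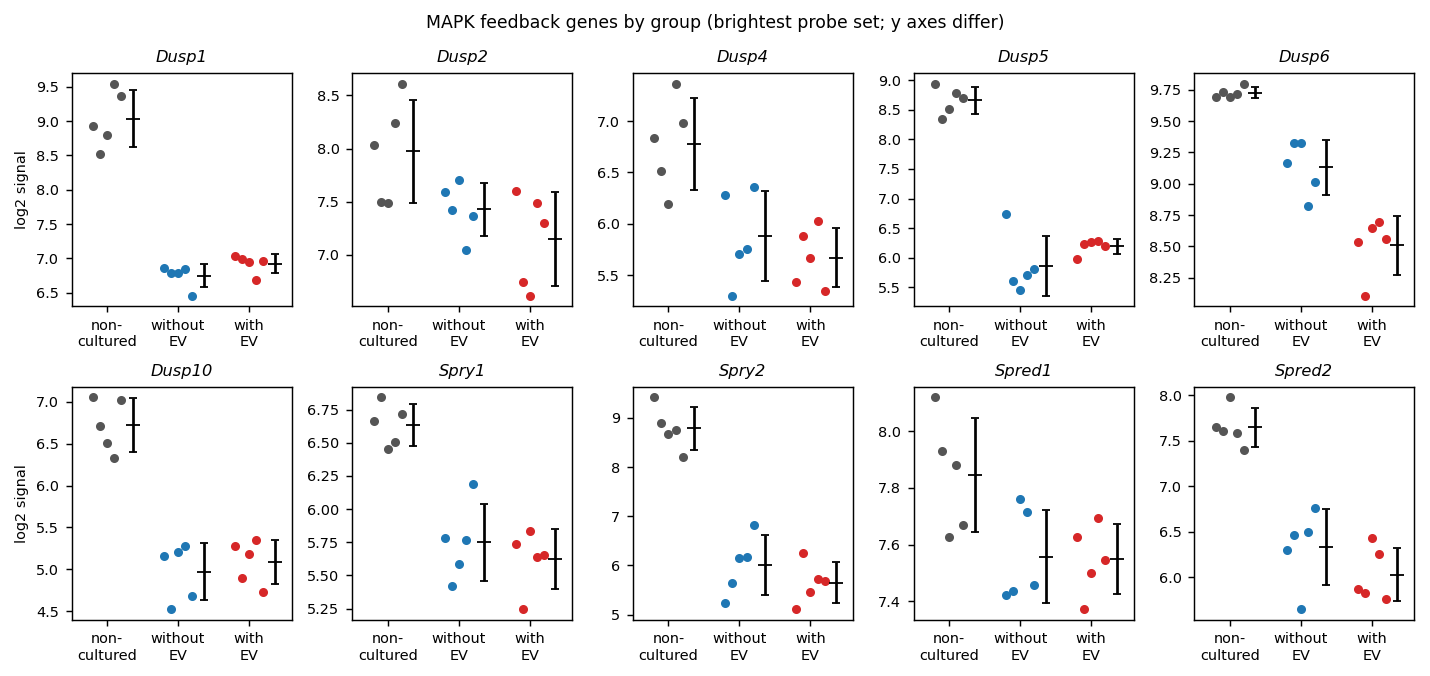
Points are the log2 signals of the brightest probe set on each array, by group and in replicate order, with the group mean and SD (n = 5) beside them; the y axes differ between genes and do not start at 0. The non-cultured arrays lie above both cultured groups in 7 of the 10 panels, while in Dusp2, Dusp4 and Spred1 they overlap the cells without EV.

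The Sprouty proteins are membrane-associated inhibitors of signals from receptor tyrosine kinases to RAS and ERK. Spry1 had log2 signals of 6.66, 6.84, 6.45, 6.51 and 6.72 in non-cultured cells, 5.78, 5.42, 5.58, 5.77 and 6.19 without EV, and 5.74, 5.25, 5.84, 5.64 and 5.65 with EV. The cultured arrays were all below the non-cultured ones, with a log2 difference of -0.89 without EV (SE 0.14, adjusted p = 0.000365) and of -1.02 with EV (SE 0.14, adjusted p = 0.000108). Spry2 had log2 signals of 9.42, 8.90, 8.67, 8.75 and 8.21 in non-cultured cells, 5.23, 5.65, 6.16, 6.16 and 6.83 without EV, and 5.11, 6.26, 5.45, 5.73 and 5.69 with EV. The gap between the lowest non-cultured and the highest cultured array of Spry2 was over 1 log2 unit, although the arrays within each group were also spread widely. Spry2 fell by 2.79 without EV (SE 0.28, adjusted p = 4.6e-06) and by 3.14 with EV (SE 0.28, adjusted p = 1.22e-06), or 6.90-fold and 8.83-fold. In Spry2 the difference without EV was -3.32 over replicates 1 to 3 and -1.98 over replicates 4 and 5.

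The SPRED proteins bind neurofibromin, a RAS inhibitor, and bring it to the membrane. Spred1 had log2 signals of 8.12, 7.93, 7.63, 7.88 and 7.67 in non-cultured cells, 7.42, 7.44, 7.76, 7.71 and 7.46 without EV, and 7.63, 7.37, 7.50, 7.70 and 7.55 with EV. The 3 groups overlapped. Spred1 had a log2 difference of -0.29 without EV (SE 0.11, 95% interval -0.52 to -0.06, adjusted p = 0.102) and of -0.30 with EV (SE 0.11, 95% interval -0.53 to -0.07, adjusted p = 0.0865), and neither was called. The second was called when each array was centred on its median (-0.37, adjusted p = 0.0345).

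Spred2 had log2 signals of 7.65, 7.61, 7.98, 7.59 and 7.40 in non-cultured cells, 6.30, 6.46, 5.65, 6.49 and 6.76 without EV, and 5.88, 5.83, 6.43, 6.25 and 5.76 with EV. Every cultured array was below every non-cultured one. The difference of Spred2 without EV was -1.61 over replicates 1 to 3 and -0.87 over replicates 4 and 5. Spred2 fell by 1.31 without EV (SE 0.19, 95% interval -1.71 to -0.92, adjusted p = 0.00013) and by 1.62 with EV (SE 0.19, 95% interval -2.01 to -1.22, adjusted p = 1.74e-05). The 2 SPRED genes thus stood side by side at -0.29 and -1.31 without EV, and the difference between them was not tested.

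In cells cultured with EV, 9 of the 10 genes were lower than in non-cultured cells and 0 were higher, against 7.85% of all genes called lower and 6.28% called higher. The gene not called was Spred1. In 8 genes, all but Dusp2 and Spred1, the 2 groups did not overlap, against 6.18% of all genes lower and 5.06% higher with no overlap. The median log2 difference was -1.42 over the 10 genes and 0.04 over all genes. With each array centred on its median, 2122 genes were called lower and 996 higher in this comparison, in place of 1741 and 1394, and all 10 feedback genes were called lower.

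**Figure D3:**
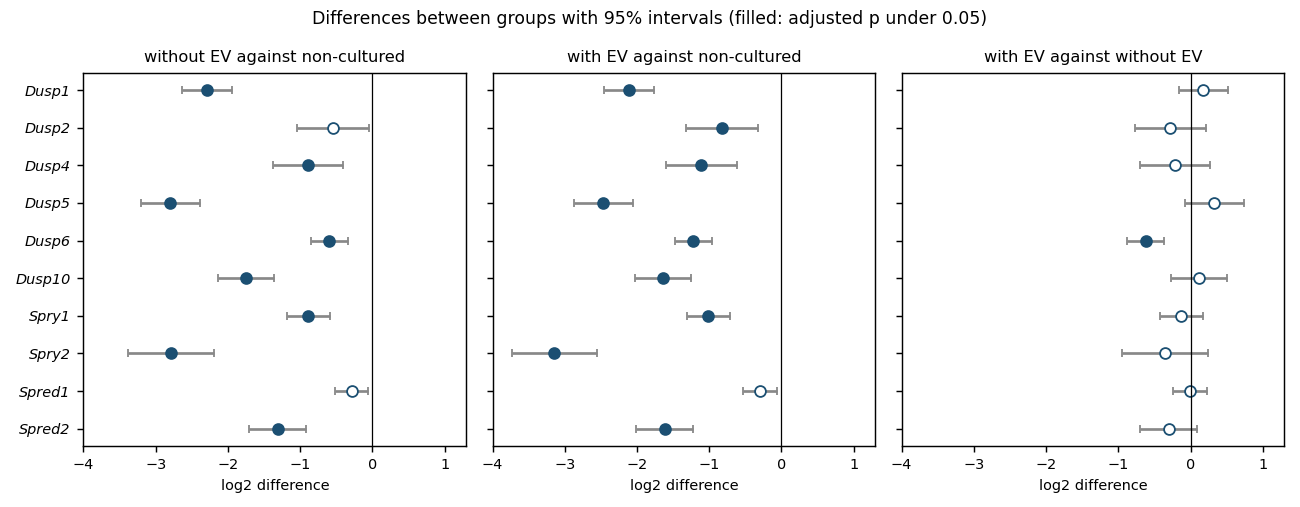
Points are log2 differences between group means with 95% intervals from the limma fit, for each gene (rows) and comparison (panels); filled points have an adjusted p under 0.05. All points of the first 2 panels lie below 0, and in the third Dusp6 alone is filled, at -0.62.

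Between the 2 cultured groups 1 of the 10 genes was called, and that call depended on the fit: Dusp6 was 1.54-fold lower with EV (log2 -0.62, SE 0.12, limma adjusted p = 0.0447, lower in 25 of 25 pairs of arrays). Of all genes 0.018% were called lower and 0.18% higher in this comparison, and 0.437% were lower and 0.762% higher with no overlap. Over replicates 1 to 3 the log2 difference of Dusp6 was -0.84 and over replicates 4 and 5 it was -0.29, with no overlap of the groups in either set. With any 1 of the 15 arrays left out the log2 difference was between -0.70 and -0.52, and the call was lost (adjusted p up to 0.158) except without replicate 4 with EV (0.0475) or replicate 4 without EV (0.0176). Without non-cultured replicates 4 and 5, which enter only the shared spread, the adjusted p was 0.0978. It was 0.154 with the replicate number as a block, 0.203 after quantile normalization, 0.256 with only the 2 groups in the fit and 0.0646 with replicates 1 to 3 and 4 to 5 as 2 sets.

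The other 9 genes were not called with EV against without EV, and their intervals give the size of difference that these arrays allow. The phosphatase genes with positive values were Dusp1 at 0.18 (95% interval -0.16 to 0.52), Dusp5 at 0.33 (-0.08 to 0.74) and Dusp10 at 0.12 (-0.27 to 0.50). Dusp5 was higher with EV in 20 of 25 pairs of arrays, the 5 exceptions all being pairs with the high replicate 1 without EV. Those with negative values were Dusp2 at -0.28 (-0.77 to 0.22) and Dusp4 at -0.21 (-0.69 to 0.28). Spry1 was at -0.13 (-0.42 to 0.17), Spry2 at -0.36 (-0.95 to 0.24), Spred1 at -0.01 (-0.24 to 0.22) and Spred2 at -0.30 (-0.70 to 0.09). The smallest adjusted p among the 9 was 0.776, for Dusp5. The median over the 10 genes was -0.17, against 0.01 over all genes.

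The second, dimmer probe set of Dusp6 gave a different picture of the same gene. Its log2 signals were 8.99, 8.58, 9.16, 8.74 and 8.76 in non-cultured cells, 7.23, 7.11, 7.44, 7.42 and 7.17 without EV, and 7.04, 8.02, 6.68, 7.63 and 7.05 with EV. By this probe set both cultured groups lay below the non-cultured one, and the cells with EV spread on both sides of those without. Over 23521 probe sets its log2 difference was -1.57 without EV (SE 0.20, adjusted p = 5.54e-05), -1.56 with EV (SE 0.20, adjusted p = 5.7e-05), and 0.01 with EV against without EV (SE 0.20, adjusted p = 0.998). The fall in culture was thus called by both probe sets, and the difference with EV by 1 of 2. On each array, brighter minus dimmer probe set was 0.88 ± 0.26 (SD, n = 5) in non-cultured cells, 1.85 ± 0.29 without EV and 1.23 ± 0.71 with EV. Between the cultured groups this quantity differed by -0.63. That value is a description only, because Dusp6 was singled out by its call on these same arrays. Whether the 2 probe sets differ in their response to EV was therefore not shown here. Replicate 2 with EV was the lowest of its group by the brighter probe set and the highest by the dimmer one. Which part of the Dusp6 transcript each probe set reads was not analysed here.

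**Figure D4:**
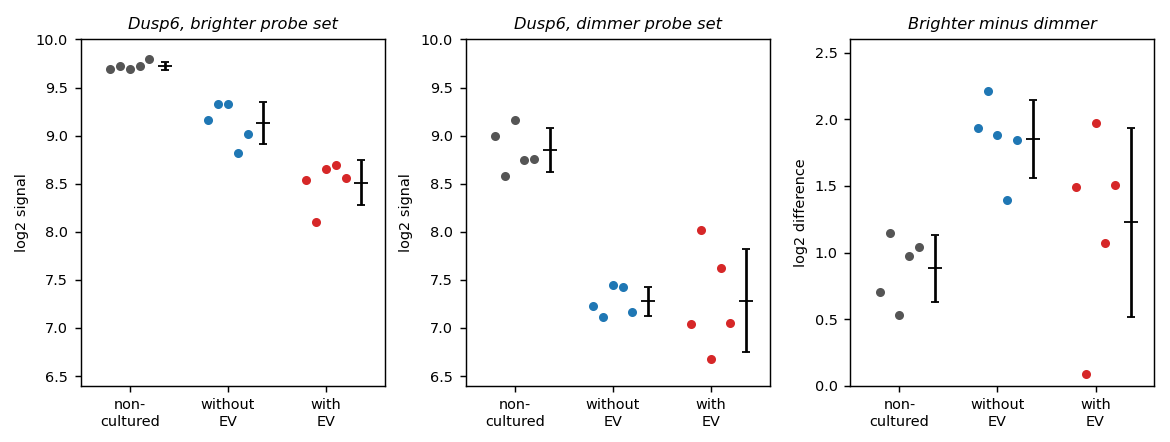
Points are the log2 signals of the brighter (left) and dimmer (middle) probe sets of Dusp6 on each array and their difference (right), with group mean and SD (n = 5); the left and middle y axes do not start at 0. Cells with EV lie below cells without EV by the brighter probe set (8.51 against 9.13), and the groups overlap by the dimmer one (7.28 in both).

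The gap between Dusp6 and the other feedback genes was measured as Dusp6 minus each other gene on each of the 10 cultured arrays. Dusp6 was taken because of its call on these same arrays, so the values are given as a description and no test of them is read. Relative to Dusp1 the mean was 2.39 without EV and 1.59 with EV, a difference of -0.80. Relative to Dusp5 it differed by -0.95, relative to Dusp10 by -0.74 and relative to Spred1 by -0.61. The gap was -0.50 against Spry1, -0.41 against Dusp4, -0.34 against Dusp2, -0.32 against Spred2 and -0.26 against Spry2. Whether Dusp6 responds to EV in another way than the other 9 genes was therefore not shown here.

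Genes with a pattern near that of each feedback gene were found by the distance between 2 values, the log2 difference of without EV from non-cultured and that of with EV from without EV, over 11900 genes that were not dim. Nearest to Dusp1 were the chemokine Ccl4, Hells and Mtfr2, with distances of 0.06 to 0.10. Nearest to Dusp5 were Gem, Uhrf1 and Sik1 (0.09 to 0.19), and nearest to Dusp10 were Cdca5, the kinase Pim1 and the replication gene Mcm2 (0.04 to 0.07). Spry2 had the most distant neighbours, Fabp5, Klf4 and the immediate early gene Ier2 (0.24 to 0.34). Nearest to Dusp6 were Hspa13, Ubald1 and Lsm5 (0.04 to 0.09), of which none was called in either comparison. Dusp2 lay nearest Isy1, Sdhb and Osbpl9, Dusp4 nearest Uck2, Pbdc1 and Cnot7, and Spry1 nearest Esr1, Raly and Dut, all within 0.03. Spred1 lay nearest Capn5, Xpo6 and Cdc25b, all within 0.01, and Spred2 nearest Med29, Ect2 and Zfp367 (0.06 to 0.10). Both values come from group means over the 15 arrays, and genes of modest change have many close neighbours.

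Among the remaining DUSP, Sprouty and SPRED genes, 3 of 18 measured fell without EV and 0 rose, against 6.88% and 6.75% of all genes. Their median was -0.01. The 3 were Dusp16, a phosphatase of JNK and p38 (log2 -1.92, SE 0.23, adjusted p = 2.31e-05), Spry4 (-0.68, SE 0.14, adjusted p = 0.00321) and Dusp8 (-0.37, SE 0.11, adjusted p = 0.0435). The same 3 were the ones called with EV against non-cultured, at -1.81, -0.48 and -0.42, where 7.85% of all genes were called lower. With EV against without EV 0 of 18 were called by limma, with 1 at an unadjusted p under 0.05, Dusp23 (-0.44, adjusted p = 0.726). Of all 22180 genes 1513 had an unadjusted p under 0.05 there.

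A list of 31 measured genes that respond to ERK, most by induction and a few, such as Elk1 and Elk4, as factors that ERK activates, was also lower in culture. This list too was chosen with earlier results of these data known. Of its 31 genes 22 fell without EV and 2 rose, against 6.88% and 6.75% of all genes, with a median of -1.56. With EV against non-cultured 22 fell and 1 rose, against 7.85% and 6.28%. They include Nr4a1 (log2 -5.39 without EV, SE 0.11, adjusted p = 2.96e-14), Fosb (-4.48, SE 0.14, adjusted p = 1.29e-11), Egr1 (-4.23, SE 0.21, adjusted p = 2.5e-09) and Ier2 (-3.04, SE 0.13, adjusted p = 5.73e-10), which are immediate early transcription factors and regulators. Against non-cultured cells their values with EV were -5.38, -4.44, -4.17 and -3.17. With EV against without EV limma called 0 of 31, with 1 at an unadjusted p under 0.05, the cyclin gene Ccnd1 (0.65, SE 0.20, adjusted p = 0.492). Of all 22180 genes 1513 had an unadjusted p under 0.05 there. Egr3 was at 0.40 in that comparison, higher in 25 of 25 pairs of arrays and not called (adjusted p = 0.752).

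None of the 23 measured genes listed for the RAS-ERK cascade was called lower in either culture comparison. Map3k8, listed below with the p38, JNK and ERK5 cascades, was called lower in both. Of these 23 genes, 0 fell and 6 rose without EV, against 6.88% and 6.75% of all genes, with a median of 0.15. The leading ones were Rasgrp3, an activator of RAS (2.63, SE 0.19, adjusted p = 9.27e-08), the ERK-activated kinase gene Mknk1 (0.69), the adaptor Gab2 (0.69) and the MEK scaffold Lamtor3 (1.11). With EV against non-cultured 5 rose, against 6.28% of all genes. Among the 5 was Ptpn11 (0.81, SE 0.20, adjusted p = 0.0134), which encodes the phosphatase that links receptors to RAS. With EV against without EV Ptpn11 was 0.84 higher, in 25 of 25 pairs, and was not called (SE 0.20, adjusted p = 0.239). Limma called 0 of the 23 there, with 4 at an unadjusted p under 0.05, where 1513 of 22180 genes had one.

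Upstream, 11 of 26 receptors and ligands rose without EV and 2 fell, against 6.75% and 6.88% of all genes. The receptor chains Csf2rb2 (3.81, SE 0.18, adjusted p = 1.18e-09), Csf1r (2.24) and Flt3 (0.63) rose, and the ligand Vegfa fell by 2.85 (SE 0.29, adjusted p = 4.79e-06). With EV against non-cultured 10 rose and 1 fell, against 6.28% and 7.85% of all genes. In the p38, JNK and ERK5 cascades 5 of 24 fell without EV and 1 rose, against 6.88% and 6.75% of all genes. The kinase genes Map3k8 (-0.72), Map2k3 (-0.54), Map2k6 (-0.68), Mapk8 (-0.77) and Mapkapk2 (-0.61) were lower. The p38 effector Mapkapk3 was higher (0.80). With EV against non-cultured 6 fell and 2 rose, against 7.85% and 6.28% of all genes. With EV against without EV limma called 0 of the 26 and 0 of the 24, with 3 and 0 at an unadjusted p under 0.05. Of all 22180 genes 1513 had an unadjusted p under 0.05 there.

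Of the inhibitors of RAS and MAPK signalling outside the DUSP, Sprouty and SPRED families, 20 of 28 were not called without EV, 4 fell and 4 rose, with a median of -0.05. Of all genes 6.88% fell and 6.75% rose in that comparison. The pseudokinase gene Trib1 (-2.93, SE 0.21, adjusted p = 1.15e-07) and the cytokine signal suppressor Socs3 (-2.03, SE 0.24, adjusted p = 2.29e-05) were lower, and the phosphatase genes Ptpn6 (0.57) and Ptprj (0.48) were higher. With EV against non-cultured 3 fell, 2 rose and 23 were not called, where 7.85% and 6.28% of all genes were called. With EV against without EV limma called 0 of the 28, with 3 at an unadjusted p under 0.05, where 1513 of 22180 genes had one.

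**Figure D5:**
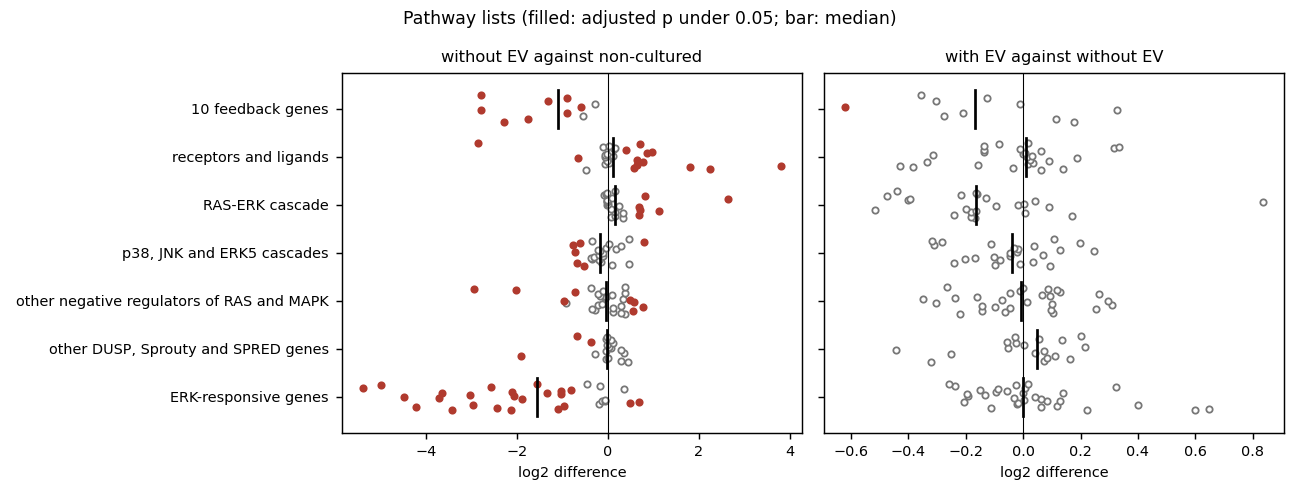
Points are log2 differences of single genes in 7 lists (rows), without EV against non-cultured (left) and with EV against without EV (right); filled points have an adjusted p under 0.05, bars are list medians, and the x axes differ. The 10 feedback genes and the ERK-responsive genes have their medians at -1.10 and -1.56 on the left, the other lists have medians of -0.18 to 0.15, and on the right Dusp6 is the 1 filled point.

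Some markers of other cell types also moved with culture. Of 11 T, B and NK cell markers 0 were called in either culture comparison. Of 9 erythroid and platelet markers 1 fell and 1 rose in each. Of 11 monocyte and macrophage markers 6 rose and 0 fell in each culture comparison, where 6.75% of all genes rose without EV and 6.28% with EV. Among the 6 were Lyz2 (1.78 without EV), Csf1r (2.24), Ccr2 (2.10) and Ly6c2 (1.52). Itgam, Fcgr1, Cx3cr1, C1qa and C1qb were not called without EV. The summed linear signal of this list was 1712 to 1775 in non-cultured arrays, 4357 to 5812 without EV and 4174 to 5720 with EV. That sum is mostly Lyz2 and Ly6c2, at log2 group means of 11.38 and 10.31 without EV. The mean log2 over the list was 6.08 to 6.15 in non-cultured arrays, 6.94 to 7.31 without EV and 6.87 to 7.21 with EV. By both measures this list was higher in the groups in which the feedback genes were lower. Of 12 neutrophil markers 4 rose and 2 fell without EV, against 6.75% and 6.88% of all genes. Mmp8, S100a8, S100a9 and Ngp rose, and Mpo (-0.66) and Prtn3 (-0.50) fell. The summed signals of the 12 were 2037 to 4271 in non-cultured arrays, 4469 to 6533 without EV and 4803 to 6002 with EV, while Ly6g stayed at group means of 2.99 to 3.11. The part of these lists in the culture differences was not tested. Of 10 LSK markers 1 fell and 3 rose without EV, against 6.88% and 6.75% of all genes, and their summed signals overlapped between all groups. Stromal markers, which EV of stromal cells could carry, summed to 312 to 336 without EV and 320 to 383 with EV, and 0 of 12 were called with EV against without EV (4 at an unadjusted p under 0.05, where 1513 of 22180 genes had one), led by Cxcl12 at 0.50 (adjusted p = 0.33, higher in 25 of 25 pairs of arrays). Against non-cultured cells 3 of the 12 were called higher with EV, Col1a2 (0.31), Sparc (0.39) and Cxcl12 (0.48), and 0 without EV, while Thy1 was called lower in both. Of all genes 6.28% were called higher with EV and 6.75% without EV. The part of stromal RNA in the Dusp6 difference was not tested.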

How the data were processed

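Expression was measured on 15 arrays in 3 groups of 5, set by the sample titles. Per the labels' protocols, 500 pg of total RNA per sample was labelled with the picoWT protocol. The authors deposited 1 table of 41345 probe sets, and its values, which run from 1.40 to 13.03, were read as log2 signals (the base of the logarithm is not stated). The submitters' processing notes name MAS5 without saying what it was used for. How background was corrected and arrays were normalized is not given in the sources used here. A dim gene cannot be separated from background without a detection measure, and the number of arrays limits the precision.

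The values were used as deposited. Of the probe sets, 23521 have 1 gene symbol, 1814 several and 16010 are unnamed here. For genes with more than 1, the brightest by its mean stands for the gene, giving 22180 genes. A group-means model was fitted by the lmFit and eBayes functions of limma 3.58.1 under R 4.3.3 (12 residual and 3.66 prior degrees of freedom), with two-sided tests and Benjamini-Hochberg adjustment over all genes. Printed standard errors are the moderated ones. Motif searches and plots used Python 3.11.15 with numpy 2.4.6, pandas 2.3.3 and matplotlib 3.10.9. Fits were tested on simulated data.

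The genes and the pathway and marker lists were chosen with earlier results of these data known. All 10 genes are named, and for each feedback gene its 3 nearest genes. Of other lists, up to 4 genes with the smallest adjusted p per comparison are named, besides defining markers. In the p38, JNK and ERK5 list without EV, all called genes are named. Same-numbered arrays were not paired in the main fit. The correlation of their deviations from the group means averaged -0.02, -0.02 and 0.08 in the 3 pairs of groups. For arrays of other numbers it averaged 0.004, 0.006 and -0.018. The last of each 3 values is that of the 2 cultured groups. Alternatives covered quantile normalization, median centring, a filter on the dimmest 40% of genes, all probe sets, only 2 groups in the fit, the replicate number as a block, a trended robust variance, an exact permutation test, and leaving out arrays. Treating replicates 1 to 3 and 4 to 5 as 2 sets was added after seeing the data.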

Additional observations from a re-analysis of the deposited data

Results flagged for a closer look

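The Dixon test at 95% was used to look for single arrays far from the other 4 in the 33 groups formed by 11 probe sets and 3 conditions. It marked 5, and chance marks about 1 in 20 groups. All 5 are arrays of cultured cells and lie in Dusp1, Dusp5 and the brighter probe set of Dusp6.

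Dusp1 was low in 1 array of each cultured group: 6.68 in replicate 4 with EV, where the others lay between 6.94 and 7.04, and 6.45 in replicate 5 without EV, where the others lay between 6.78 and 6.85. Both values remain far below the lowest non-cultured value of 8.52. Dusp5 was high in replicate 1 without EV, at 6.74 against 5.45 to 5.82 in the others, and low in replicate 1 with EV, at 5.97 against 6.20 to 6.29. Without replicate 1 without EV, the difference of Dusp5 between the cultured groups was 0.55 in place of 0.33 and was not called (limma adjusted p = 0.15). Dusp6 was low in replicate 2 with EV, at 8.11 against 8.53 to 8.69 in the others. Without that array its difference was -0.52 in place of -0.62 and was not called (limma adjusted p = 0.0712).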

How the results depend on the processing

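In the 2 comparisons with non-cultured cells, 8 genes without EV and 9 with EV were called, and with any 1 array left out the counts were 8 without EV and 8 to 9 with EV. Dusp1, Dusp5, Dusp6, Dusp10, Spry1, Spry2 and Spred2 were called lower in both comparisons under all alternatives except the exact permutation test over all genes, which called 0 of the 10 in each of the 3 comparisons: its smallest p of 0.00794 cannot pass after adjustment, and the genes with no overlap had adjusted p of 0.0662 without EV and 0.0706 with EV. For with EV against without EV, 0 in place of 1 gene was called under quantile normalization (Dusp6 -0.56, adjusted p = 0.203), with only the 2 groups in the fit (0.256), with the exact permutation test (0.662), without non-cultured replicates 4 and 5 (0.0978), with replicates 1 to 3 and 4 to 5 as 2 sets (0.0646), and 0 to 1 with 1 array left out. Spred1 in that comparison turned from -0.01 to 0.078 under quantile normalization and ranged from -0.047 to 0.041 with 1 array left out. Dusp2 with EV against non-cultured was also lost under quantile normalization (adjusted p = 0.0711) and with only the 2 groups in the fit (0.0548). The cause of these changes was not tested.

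With the replicate number as a block, 0 in place of 1 gene was called with EV against without EV (Dusp6, adjusted p = 0.154), although the numbers did not pair the arrays: 1, 1 and 3 arrays of the 3 pairs of groups were closest to the array of their own number. The block changed no other limma call. The 4 largest differences of Dusp6 relative to another feedback gene were those to Dusp1 (-0.80), Dusp5 (-0.95), Dusp10 (-0.74) and Spred1 (-0.61). The block cannot change them, since all 5 numbers are in both groups, so it is no check of them. With 1 array left out these 4 values ranged from -0.91 to -0.68, -1.16 to -0.80, -0.89 to -0.58 and -0.73 to -0.53. The ranges are a description only, because Dusp6 was taken for its call on these same arrays.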
